A study of Pimephales promelas with 15 samples.

Results

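The comparison described here sets the livers of 4 male fathead minnows kept in lake stormwater against those of 3 males kept in control water. The 7 arrays were chosen by the water named in the sample titles, out of 15 arrays in the series. Fathead minnow (Pimephales promelas) is a small freshwater fish of North America that is widely used in aquatic toxicology. The stormwater was taken from a lake in Florida and used whole, and the control was dechlorinated tap water that had passed over carbon. All fish were mature males from a common tank, were held for 48 h without food at 4 fish per 40 L aquarium with 25 L of water, and had part of the water changed once. Each water had 4 aquaria. The other 8 arrays hold livers from streamwater, collected below a wastewater treatment plant, and from wastewater, the treated effluent of a plant, with 4 fish each. Each array held the Cy3-labelled RNA of 1 liver, made from 1000 ng of total RNA. The p-values set the difference between groups against the spread between single fish. The labels do not tie a fish to an aquarium, so it is not known whether that spread includes differences between aquaria. The number of arrays limits the precision throughout.

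The liver takes up compounds that reach the blood from gill and gut, modifies them with cytochrome P450 and conjugating enzymes and exports them into bile. It also makes most plasma proteins, lipoproteins and clotting factors, whose messenger RNAs are among the most abundant in hepatocytes. In male fish exposed to estrogens the liver makes the egg yolk precursor vitellogenin, which is normally a product of females, and this is why male livers are often used to test surface waters.

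The array carries 15208 non-control probes, which the files name by contigs (11862 probes), sequence numbers (3309) or other names (37). None of these names matched the RefSeq gene table of the species, so that 0 probes could be given a gene name, no gene group could be followed and the livers were not checked against hepatocyte markers. Probes are therefore given by their identifiers, all of which begin with UF_Ppr_, left out below. No probe sequence was used here. A level is the log2 of a probe's background-subtracted intensity minus that array's 75th percentile, so that a level of 0 is as bright as that percentile and each unit is a doubling. Levels of different probes are used only to sort probes by brightness and are not read as relative amounts of RNA. Of the 15208 probes, 11306 were flagged by the scanner software as well above background on 3 or more of the 7 arrays, 8445 of them on all 7, and these 11306 were tested. The 3902 others were not tested, with 1532 detected on 1 or 2 arrays and 2370 on none.

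The share of probes detected (well above background) ran from 64.2% to 77.1% in the stormwater livers and from 65.8% to 75.2% in the controls. The means were 69.8% ± 5.58 (SD, n = 4) and 71.5% ± 4.97 (SD, n = 3), and an exact permutation test over all 35 splits of the arrays gave p = 0.743, two-sided. That design cannot give a p below 0.0286. The 75th percentile of signal was 2757 ± 853 intensity units (n = 4) against 1954 ± 225 (n = 3), with an exact permutation p of 0.171. Adjusted over the 4 such tests, with and without stormwater replicate 2, these p-values were 0.743 and 0.4. Stormwater replicate 2 stood apart from the other 6 livers. Across the tested probes, which are not independent replicates, its levels correlated at r = 0.772 to 0.806 with the others, which correlated at 0.887 to 0.959 among themselves. Stormwater replicates 1, 3 and 4 correlated with the controls at 0.890 to 0.959, a range that covers the 0.927 to 0.936 found among the controls. The counts and the changes of named probes are therefore given with this liver and without it, and other values are of all 7 arrays. Without it the share of probes above background was 67.4% ± 3.40 (n = 3), with an exact permutation p of 0.3, and the 75th percentile was 2349 ± 304, with an exact permutation p of 0.2, where 20 splits allow no p below 0.1. The arrays lay on 2 slides that each held both groups, stormwater replicates 1 and 2 with control 1 on one, and stormwater replicates 3 and 4 with controls 2 and 3 on the other.

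No probe separated stormwater from control livers after adjustment for the 11306 tests. With all 7 arrays, limma called 0 probes at an adjusted p of 0.05 (0% of those tested), and the lowest adjusted p was 0.486. With stormwater replicate 2 left out it again called 0 probes (0%), with a lowest adjusted p of 0.124. Unadjusted p-values under 0.05 were found for 843 probes (7.46%), where 565.3 would be expected on average if nothing differed. Probes are not independent, so such a count can lie far from that average by chance. Of the 843 probes, 265 were higher after stormwater (2.34%) and 578 lower (5.11%). Without replicate 2 the numbers were 244 higher (2.16%) and 639 lower (5.65%), 883 in all (7.81%). The split between higher and lower probes differed between scalings. The median change over all tested probes was -0.20 on the log2 scale (-0.19 without replicate 2), and after quantile normalization, which gives all arrays the same distribution, it was -0.026 with 408 probes higher and 296 lower. In the authors' deposited log2 values it was -0.0014, with 418 higher and 265 lower. Leaving out control replicate 1 left 139 higher and 328 lower, control replicate 2 left 162 and 332, and control replicate 3 left 286 and 456, each in a fit with fewer arrays.

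The precision of a single probe's change was limited. The median standard error of a log2 change was 0.43 with 7 arrays and 0.40 without replicate 2, and the median 95% confidence interval reached 1.01 and 0.94 to either side. A typical probe would thus need a change of about a log2 unit for its own interval to leave out 0, before any adjustment. The median SD of a probe's level was 0.61 among the 4 stormwater livers, 0.48 without replicate 2 and 0.41 among the controls.

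In 441 probes all 4 stormwater livers lay above every control (3.9%), and in 821 they lay below (7.26%), 1262 in all (11.2%). Without replicate 2 these numbers were 599 (5.3%), 1203 (10.6%) and 1802 (15.9%). With fewer arrays to separate, such counts grow. If nothing differed, a share of about 0.0286 of probes would be expected above and as large a share below, given the 35 splits of 7 livers. Without replicate 2 the share expected in both directions together is about 0.1, given 20 splits. Probes are not independent, so counts can lie far from these averages by chance. Leaving out any 1 of the 7 arrays gave 577 to 947 probes above and 1132 to 1432 below, the most without control replicate 3. After quantile normalization 617 probes lay above every control and 411 below, and in the authors' values 645 lay above and 354 below. The larger number was thus below in the main scaling and above in these 2. The probes described next are examples from the ends of this distribution and were chosen by their p-values, so their separation is a description.

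Among probes well above background on all 7 arrays, the 10 of lowest p with higher levels after stormwater had log2 changes of 1.28 to 3.48, and of 1.13 to 3.21 without replicate 2. Their limma adjusted p lay between 0.628 and 0.641, and between 0.124 and 0.619 without replicate 2. Levels of AF_118252 were 1.14, -0.82, 1.28 and 0.81 in stormwater livers 1 to 4 and -2.10, -1.97 and -2.34 in the controls. All 4 stormwater livers lay above all controls, and replicate 2 was the lowest of the 4. The change was 2.74 (SE 0.53, adjusted p = 0.628), 6.68-fold, and 3.21 (SE 0.28, adjusted p = 0.124), 9.28-fold, without replicate 2. Within the slides it was 2.27 and 3.2, and 3.25 on the first without replicate 2. The first slide, that of stormwater replicates 1 and 2, held a single control. Within-slide values below include replicate 2 unless stated. AF_118252 is the probe with the lowest p in the fit without replicate 2, and under 3 of the other settings tried there its adjusted p fell below the threshold, to 0.0335 with a normexp background, 0.0210 with only probes detected on all 6 arrays, and 0.0349 with trended and robust variances. Over all settings without replicate 2 the adjusted p ran from 0.0210 to 0.845.

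AF_117236 had the largest change of these 10. Its levels were -0.54, 1.66, 1.53 and 0.45 in the stormwater livers and -1.49, -2.64 and -3.98 in the controls. The groups did not overlap, but both were wide, with SDs of 1.03 and 1.24. The change was 3.48 (SE 0.73, adjusted p = 0.638), 3.18 (adjusted p = 0.619) without replicate 2, and 2.05 and 4.30 within the slides. On the first slide it was 0.95 without replicate 2. AF_115056, a brighter probe, was at 4.07, 4.77, 4.45 and 4.05 after stormwater and 2.86, 3.15 and 3.16 in the controls. Its livers fell into tight groups, 4.33 ± 0.34 (SD, n = 4) and 3.06 ± 0.17 (n = 3), with a change of 1.28 (SE 0.30, adjusted p = 0.641), 2.43-fold, and 1.13 without replicate 2. AF_112926 varied least after stormwater, at -0.29, -0.09, -0.13 and -0.30, against -1.39, -2.22 and -1.61 in the controls. Its change was 1.53 (SE 0.30), 2.90-fold, with an adjusted p of 0.628, and 1.5 without replicate 2. The remaining 6 (AF_101112, AF_113292, AF_109140, AF_107108, AF_114409 and AF_104306) had changes of 1.35 to 1.80, and replicate 2 was the highest of the stormwater livers in 4 of them. AF_101112 was at -0.64, -0.29, 0.24 and -0.65 against -1.91, -1.81 and -2.69 in the controls, with a change of 1.80 (SE 0.37), and 1.79 without replicate 2. AF_107108 was at 1.58, 2.05, 1.38 and 2.00 against -0.20, 0.80 and 0.17, with a change of 1.49 (SE 0.35), and 1.40 without replicate 2. In both, every stormwater liver lay above the highest control. AF_109140 was at 0.10, 1.06, 0.44 and -0.03 against -1.02, -1.59 and -1.06, and its change went from 1.62 to 1.40 without replicate 2.

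The 10 probes of lowest p with lower levels after stormwater had log2 changes of -2.69 to -1.45, and of -2.64 to -1.44 without replicate 2. Their adjusted p lay between 0.601 and 0.638 in limma's fit of 7 arrays, and between 0.542 and 0.619 without replicate 2. AF_100386 was at -1.05, -0.67, -0.77 and 0.51 after stormwater and at 2.07, 2.22 and 2.31 in the controls. The controls spread less than the stormwater livers, and stormwater replicate 4 was nearest to them. Its change was -2.69 (SE 0.41, adjusted p = 0.601), 6.47-fold lower, -2.64 (adjusted p = 0.542) without replicate 2, and -2.93 and -2.40 within the slides. AM_119519 showed the opposite pattern of spread, with stormwater livers at 1.62, 1.61, 1.54 and 1.83 and controls at 3.13, 4.62 and 3.57. Its SD was 0.12 after stormwater and 0.77 in the controls, and its change was -2.13 (SE 0.39, adjusted p = 0.628), and -2.11 without replicate 2.

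AF_111252, bright in both groups, was at 3.00, 3.27, 3.27 and 3.68 after stormwater and at 4.59, 4.96 and 4.73 in the controls, a change of -1.45 (SE 0.29, adjusted p = 0.628), 2.73-fold lower, and -1.44 without replicate 2. Both groups were tight and lay about a log2 unit apart at their nearest livers. AM_119283 was at -1.24, -0.76, -0.59 and -0.77 against 0.75, 1.37 and 1.1, a change of -1.91 (SE 0.30), and -1.94 without replicate 2. AF_108087 was at -2.53, -2.0, -2.08 and -1.78 against -0.45, 0.41 and -0.14, a change of -2.04 (SE 0.33), -2.07 without replicate 2, with -1.81 and -2.06 within the slides. In both, every stormwater liver lay at least a log2 unit below the lowest control. The remaining 5 (AF_108513, AF_110993, AF_112851, AF_113084 and AF_107470) had changes of -1.88 to -1.60. AF_112851 was at -0.25, 0.70, 0.24 and 0.46 against 1.59, 2.37 and 1.98, a change of -1.69 (SE 0.35), and -1.83 without replicate 2. Its 2 groups had like SDs, 0.40 and 0.39, and lay under a log2 unit apart at their nearest livers. Leaving out replicate 2 moved the estimates of the 10 lower probes little, and AF_107470, the most affected, went from -1.69 to -1.52.

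**Figure D1:**
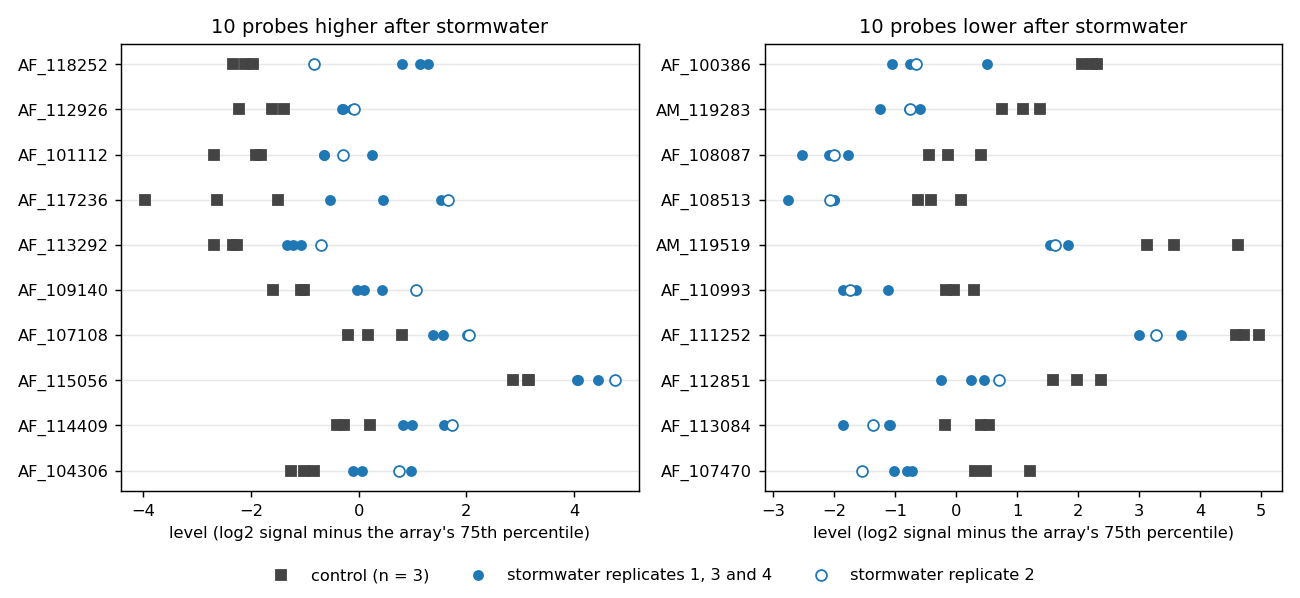
Levels (log2 signal minus the array's 75th percentile) of the 10 higher and 10 lower probes of lowest p among those well above background on all 7 arrays, 1 row per probe. Squares are the 3 controls, filled circles stormwater replicates 1, 3 and 4, and the open circle stormwater replicate 2. In all 20 rows the stormwater and control livers do not overlap, and none of the 20 probes passed an adjusted p of 0.05.

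Some probes were detected in only 1 of the stormwater and control groups, without regard to the other waters. Of the tested probes, 11 were well above background in all 4 stormwater livers and in no control (0.0973%), and 8 in all 3 controls and no stormwater liver (0.0708%). For these the dim group has only a bound, and the fold printed after "at least" divides the detected group by that bound, taken per array as the faintest signal of any detected probe or the probe's own, whichever was higher. AF_107921 was at -2.59, -2.18, -2.70 and -3.11 after stormwater and at -4.39, -4.65 and -5.90 in the controls, where it was not well above background. It was at least 3.47-fold higher after stormwater, and at least 3.12-fold without replicate 2 (limma adjusted p = 0.628 and 0.619). AF_115294 was at -3.78, -2.90, -3.92 and -3.89 against -6.04, -5.53 and -5.75, at least 1.82-fold higher, and at least 1.54-fold without replicate 2. AF_118481, AF_118246 and AF_116662, the others of lowest p, were at least 3.21-fold, 2.47-fold and 2.36-fold higher, and at least 3.09-fold, 1.81-fold and 1.78-fold without replicate 2. AF_115294 was also detected in 1 streamwater liver, and AF_118481, AF_118246 and AF_116662 in 2 each. All 4 of these probes were detected in 0 wastewater livers.

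The probe with the lowest p of all with 7 arrays was of the reverse kind. AF_110678 was at -6.71, -6.64, -6.22 and -6.41 in the stormwater livers, not well above background in any, and at -3.94, -3.14 and -4.09 in the controls. It was at least 2.06-fold lower after stormwater, and at least 1.83-fold without replicate 2. The fitted change, which rests on signals within the background, was -2.77 (SE 0.33, adjusted p = 0.486), -2.72 (adjusted p = 0.369) without replicate 2, and -2.73 and -2.70 within the slides. By measured signal every stormwater liver lay over 4-fold below every control, in this tested probe alone, but the signal of an undetected spot has no known size and the bound remains at least 2.06-fold. AF_108959 (-6.15, -6.93, -4.43 and -4.43 against -3.06, -3.21 and -1.68) was at least 3.93-fold lower (3.37-fold without replicate 2) and AF_110916 (-6.17, -5.26, -5.09 and -4.64 against -3.49, -2.07 and -3.13) at least 3.63-fold (3.23-fold). AF_114651 and AF_101070 were at least 2.87-fold and 2.02-fold lower, and at least 2.5-fold and 1.79-fold without replicate 2. In each of these the controls lay above all stormwater livers, at levels that are themselves among the dim ones of an array. AF_110678 was also detected in 1 streamwater and 1 wastewater liver, AF_110916 in 2 and 1, and AF_114651 in 2 and 3. AF_108959 and AF_101070 were detected in 0 livers of either water.

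**Figure D2:**
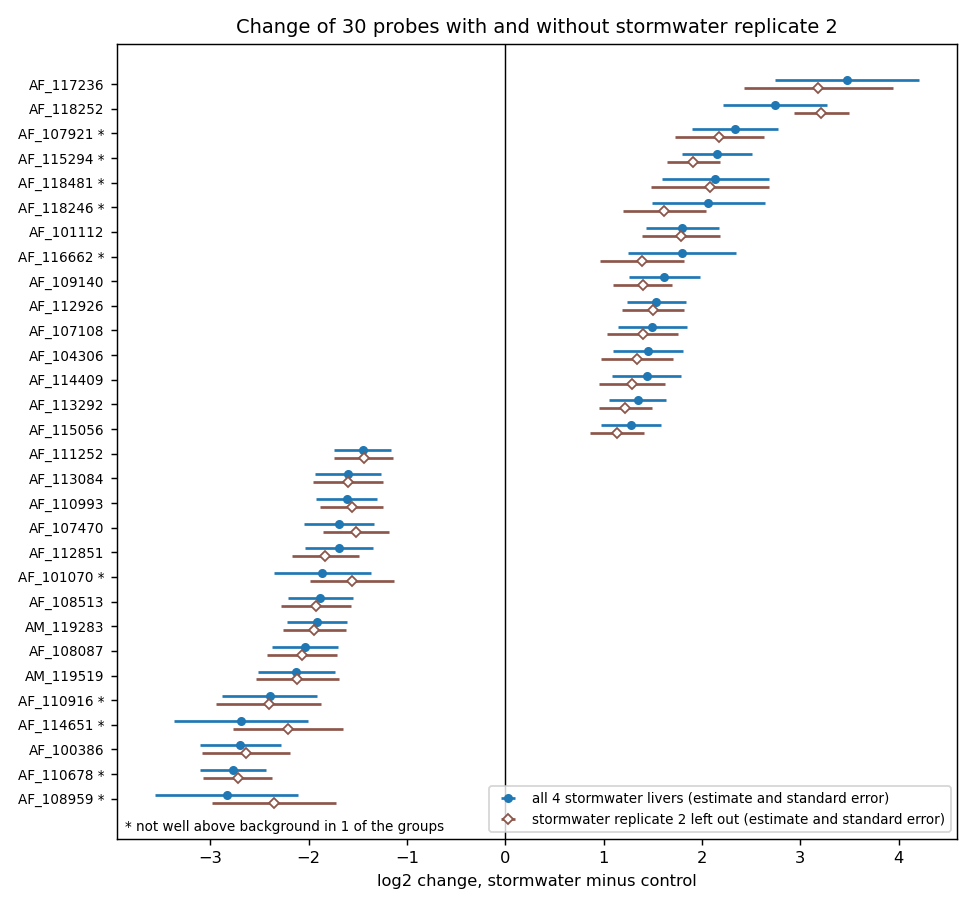
Log2 change (stormwater minus control, with standard error) of the 20 probes of lowest p and the 10 probes detected in 1 group only, ordered by the change with all 4 stormwater livers (filled circles). Open diamonds leave out stormwater replicate 2, and an asterisk marks probes that were not well above background in 1 of the groups. The groups do not overlap in any of these probes, so leaving out this liver could not take an estimate across 0. The 10 higher probes of lowest p run from 1.13 to 3.21 without it.

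The change depended on how bright a probe was. The tested probes were split into 4 bins of 2826 or 2827 probes by mean level over the 7 arrays. From the dimmest to the brightest bin the median log2 change was -0.46, -0.30, 0.00 and -0.04. Without replicate 2 the medians were -0.55, -0.34, -0.02 and 0.02. The share of probes lower at an unadjusted p under 0.05 was 8.77% in the dimmest bin and 5.91%, 2.51% and 3.25% in the others, and the share higher was 1.91%, 2.05%, 3.89% and 1.52%. The median shift of the dim probes was found in each stormwater liver against the control mean, at -0.62, -0.13, -0.68 and -0.26 in the dimmest bin for replicates 1 to 4. Only 16.0% of the dimmest bin was detected on all 7 arrays, against 84.7%, 98.4% and 99.6% of the others. After quantile normalization the 4 medians were -0.08, -0.07, 0.03 and 0.02, and in the authors' values -0.11, -0.06, 0.05 and 0.11. The part of scaling and of brightness in the lower levels of dim probes was not tested.

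**Figure D3:**
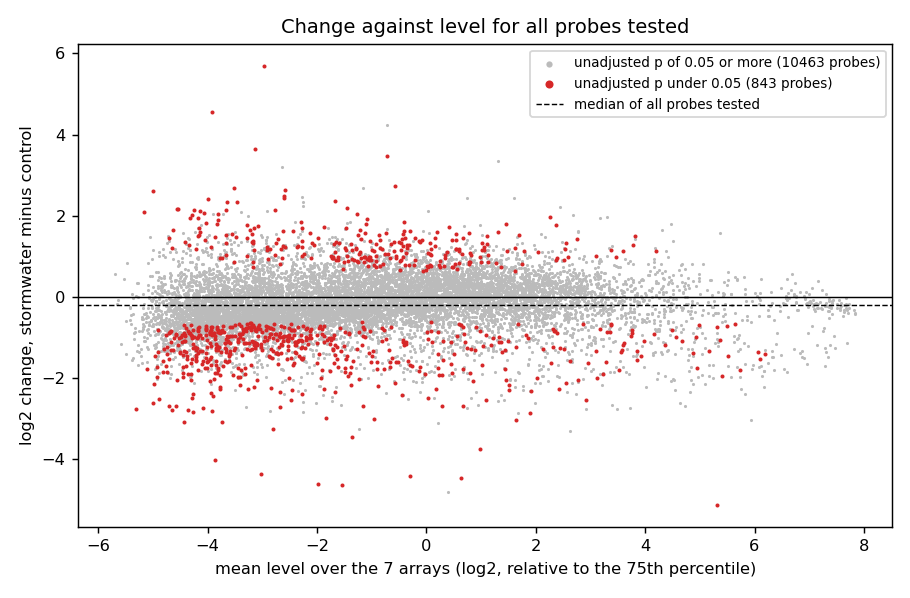
Log2 change of each of the 11306 tested probes (stormwater minus control, 7 arrays) against its mean level over the 7 arrays, with the 843 probes at an unadjusted p under 0.05 in red and the median of all probes, -0.20, as a dashed line. The cloud lies below 0 at low levels, where the dimmest bin has a median of -0.46, and around 0 at high levels.

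Most probes far from the controls were far from them in a single stormwater liver. Against the 3 controls, 384 tested probes of stormwater replicate 1 lay over 4-fold below every control, with 699 in replicate 2, 178 in replicate 3 and 21 in replicate 4. Over 4-fold above every control lay 50, 294, 40 and 17. Of the 1156 probes that were so far below in any stormwater liver, 1042 were so in 1 liver, 103 in 2, 10 in 3 and 1 in all 4. Replicate 2 alone accounted for 603 of them. These counts rest on measured signals, and 566 of the 1156 probes were not well above background in a liver that was so far below. Of the 369 that lay above, 340 did so in 1 liver, 272 of these in replicate 2, 26 in 2 livers, 3 in 3 and 0 in all 4. Replicate 4 was the liver nearest to the controls by this measure.

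Many of the brightest probes were far lower in replicate 2 than in the other livers. Of the 100 probes brightest in the controls, 32 lay over 16-fold below the control mean in replicate 2, against 1 in replicate 1, 1 in replicate 3 and 0 in replicate 4. The median of these 100 probes was at -0.94 log2 units from the control mean in replicate 2 and between -0.17 and -0.01 in the others. AF_113208 was at 8.04, 2.03, 7.85 and 8.32 after stormwater and at 8.23, 8.18 and 8.42 in the controls. AF_107896 was at 7.96, 2.76, 8.12 and 8.02 against 8.09, 8.14 and 8.37, and AF_114707 at 7.99, 3.74, 8.01 and 7.97 against 8.20, 8.07 and 8.28. In each of these, replicates 1, 3 and 4 lay near the controls and replicate 2 far below them, and leaving out replicate 2 took the change of AF_113208 from -1.72 to -0.21 (limma adjusted p = 0.738 and 0.821).

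All 100 probes were below the control mean in replicate 2, against 52, 90 and 67 in replicates 1, 3 and 4, but the size of the gap varied. The 5 brightest after stormwater by a mean that includes replicate 2 (AF_117718, AF_103403, AF_109733, AF_106940 and AF_116308) were at 6.91 to 7.15 in replicate 2 and at 7.66 to 8.14 in the other 3. A few spots of the brightest probes were saturated on 1 or more arrays, which compresses differences at the top. Of the 15 arrays, streamwater replicate 4 was like it in this count, with 31 of the 100 bright probes over 16-fold below the control mean, and no other array had more than 1. Stormwater replicate 2 also had the highest 75th percentile of signal, 3981 intensity units against 2134 to 2697 in the other stormwater livers, and the largest share of probes above background, 77.1%. The part of these in its low bright probes was not tested.

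**Figure D4:**
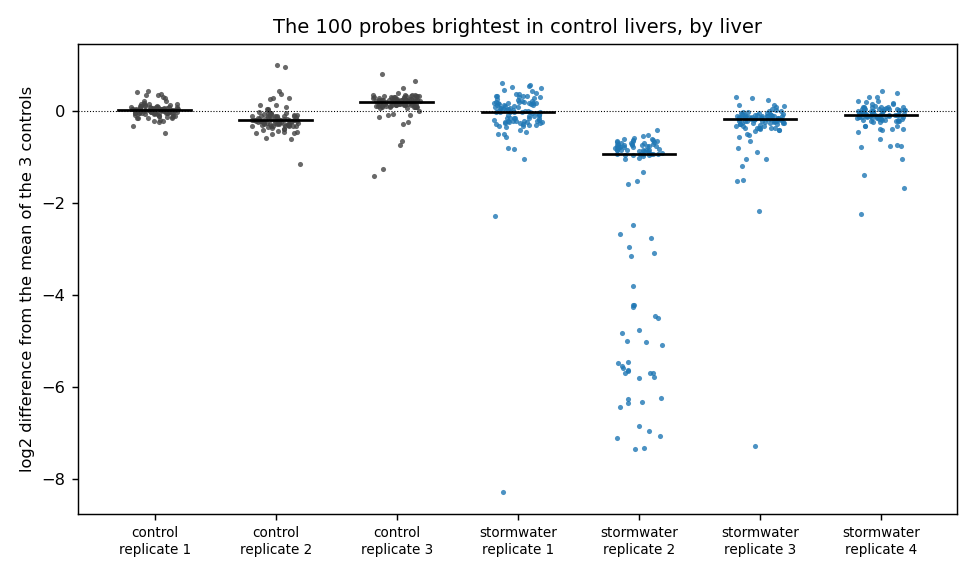
Log2 difference from the mean of the 3 controls for the 100 probes brightest in the controls, by liver. Each point is a probe and the bar is the median of the liver. In stormwater replicate 2, 32 points lie more than 4 log2 units (16-fold) below 0 and the median is -0.94, while at most 1 point does so in each other liver.

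Leaving out replicate 2 moved some probes by several log2 units, and the 5 that moved most in each direction are given here without a test. AF_107961 was at 1.85, -7.21, 2.23 and 2.39 after stormwater and at 0.76, -1.56 and 1.69 in the controls, and AF_108019 at 1.91, -7.41, 2.27 and 1.61 against 1.53, 1.68 and 1.33. AF_114145 and AF_109919 were at -5.50 and -7.33 in replicate 2. These 4 were not well above background in replicate 2 and were detected in the 6 other livers, so that the size of the gap is not known. AF_116949 was detected in all livers, at 4.85, -3.26, 6.75 and 5.35 against 4.36, 3.29 and 4.21, and replicate 2 was the lowest.

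In the other direction, AF_118647 was at -1.28, 5.17, -1.76 and 0.21 against 0.15, 2.51 and -1.57, and AF_102650 at 0.24, 4.81, -0.93 and -0.10 against -0.95, 1.55 and 0.76. AF_114722 was at -3.23, 2.74, -0.48 and -1.17 against -1.23, 1.32 and -1.13. In these 3 replicate 2 was the highest and a control came second. AF_118788 was at -1.33, 2.91, -2.24 and -2.11 against 2.38, -1.67 and 2.68, so that replicate 2 was close to controls 1 and 3. AF_103241 was at -2.78, 6.57, -1.20 and 4.54 against -2.49, 4.32 and -3.82, with stormwater replicate 4 and control 2 also high.

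Replicate 2 was not alone in most of the probes it moved. Streamwater replicate 4 was at -6.25 in AF_107961, -6.52 in AF_108019, -4.13 in AF_116949, -6.38 in AF_114145 and -6.43 in AF_109919. It was at 4.71 in AF_118647, 4.36 in AF_102650, 4.76 in AF_114722 and 6.19 in AF_103241, but at -1.63 in AF_118788. Other probes were far off in a single liver of the series. Set against all 14 other livers of the series, AF_115837 was at 0.71 in stormwater replicate 1 and at -3.97 or below elsewhere. AF_100887 was at -6.79 in replicate 3, not well above background, and at 0.98 to 3.60 in the 14 others. AF_111085 was at -0.34 in replicate 2 and at 3.46 to 5.49 elsewhere. In replicate 4 the farthest was AF_114995, not detected at -5.70, against -1.68 to 0.34. Counted against the 6 other livers of both groups, 6 probes of replicate 1 lay over 8-fold above all of them, with 9 in replicate 2, 1 in replicate 3 and 2 in replicate 4. By measured signal 21, 329, 7 and 1 probes lay over 8-fold below all 6, and 21, 72, 7 and 1 of these were not detected in the liver that was low. Of the 4 livers, only replicate 2 had such low probes that it still detected. Against all 14 other livers of the series the counts were 3, 3, 3 and 1 below for replicates 1 to 4. Above all 14 they were 3, 1, 0 and 0.

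A few probes with very large ranges took different levels in single stormwater livers. Of these, AF_109972 was named as one of the brightest in the controls. AF_102146, AF_119087 and AF_109476 were named after their values were seen. AF_109972, bright in the controls at 8.23, 7.96 and 8.57, was at -0.03, 4.05, 0.97 and 7.51 in the stormwater livers. Its levels thus ran from near the 75th percentile in replicate 1 to almost the control level in replicate 4. AF_102146 was at 3.21, 3.26 and 3.10 in the controls and at -3.63, -0.03, -2.73 and 1.24 after stormwater, and the 4 stormwater livers stood in the same order for both probes. The changes were -5.13 (SE 1.65) and -4.48 (SE 1.12), both with a limma adjusted p of 0.641, and -5.44 and -4.90 without replicate 2, with an adjusted p of 0.619. Of the 7 spots of AF_109972, 2 were saturated, both in controls, which compresses its change. With stormwater replicates 2 and 4 both left out they were -7.78 and -6.37, each with an adjusted p of 0.0237, and these were the only 2 probes to pass there. That fit compares 2 stormwater livers with 3 controls. In both probes the 2 livers left out were the stormwater livers nearest to the controls, so these adjusted p-values are not support for a change.

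AF_119087 was not well above background in any control, at -5.79, -6.47 and -6.43, and was at -1.76, -4.60, -2.56 and 6.75 in the stormwater livers. All 4 were above background, and replicate 4 was the highest of the stormwater livers by over 8 log2 units. High levels were also found in other waters, at 6.67, 7.65, 5.97 and 7.33 in wastewater livers 1 to 4. Streamwater livers 1 to 4 were at -5.39, 5.10, -3.32 and -1.67, with replicates 1 and 3 not well above background. AF_109476 was at -6.16, -6.75 and -6.69 in the controls, not well above background, and at -0.57, -7.43, 1.75 and -1.62 after stormwater. It was detected in replicates 1, 3 and 4 and not in replicate 2, and since no control was above background its change has no known size. AF_109476 was also detected in streamwater livers 1 to 4, at -2.02, -0.94, -0.03 and 1.48. Of the wastewater livers it was detected in replicates 2 and 3, at -0.59 and 1.28, and not in replicates 1 and 4.

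The other 2 waters place these levels. The comparisons of the 3 waters with control share the same 3 control livers, so the levels are set side by side without a test. AF_109972 was between 1.60 and 8.00 in the 8 other livers, with streamwater replicates 1 and 3 and wastewater replicate 4 low and the other 5 near the controls. AF_118252 was at -0.24 ± 1.00 (SD, n = 4) after streamwater and 0.70 ± 0.20 (n = 4) after wastewater, beside 0.60 ± 0.97 (n = 4) after stormwater and -2.14 ± 0.19 (n = 3) in the controls. AF_100386 was at 0.41 ± 0.69 after streamwater and 1.2 ± 0.56 after wastewater, beside -0.49 ± 0.69 after stormwater and 2.20 ± 0.12 in the controls. For AF_118252 every liver of the 3 waters lay above the controls, while AF_100386 was lowest after stormwater on average. AF_115056 was at 4.20 ± 0.76 after streamwater and 2.83 ± 0.25 after wastewater, beside 4.33 ± 0.34 after stormwater and 3.06 ± 0.17 in the controls. All 10 lower probes of lowest p had means below the control mean after streamwater and after wastewater alike. Of the 10 higher ones, 9 had means above it after streamwater and 3 after wastewater. These probes were chosen with the same controls, and the shares over all tested probes were not counted.

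Set against the mean of streamwater and wastewater, without the controls in the contrast, stormwater differed in 1 of the 11306 probes at an adjusted p of 0.05 (0.00884%), and 443 had an unadjusted p under 0.05 (3.92%). The probe was AF_107921, described above as detected after stormwater and in no control. No liver of the other waters had it well above background, with levels of -5.34 ± 0.42 (n = 4) after streamwater and -5.13 ± 0.50 (n = 4) after wastewater against -2.65 ± 0.38 (n = 4) after stormwater. The fitted difference, taken against signals within the background, was 2.59 on the log2 scale (SE 0.33, limma adjusted p = 0.0198), with all 4 stormwater livers above the 11 others. Its adjusted p was 0.0192 after quantile normalization and 0.0375 with slide as a block. The probe had entered the test through the 4 stormwater livers alone, the group in which it was high. In a fit of all 15208 probes without that filter, added after the values were seen, it was again the single call (adjusted p = 0.0230). That fit reuses the same values of this probe and is not separate support for it. There 1923 of the 15208 probes had an unadjusted p under 0.05, beside 443 of 11306 with the filter. With the filter and stormwater replicate 2 left out, the difference of AF_107921 was 2.43 with an adjusted p of 0.158, and 0 probes passed in this contrast. The name of the target of this probe has a second probe, AM_120669, which was not above background in any of the 7 livers.

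**Figure D5:**
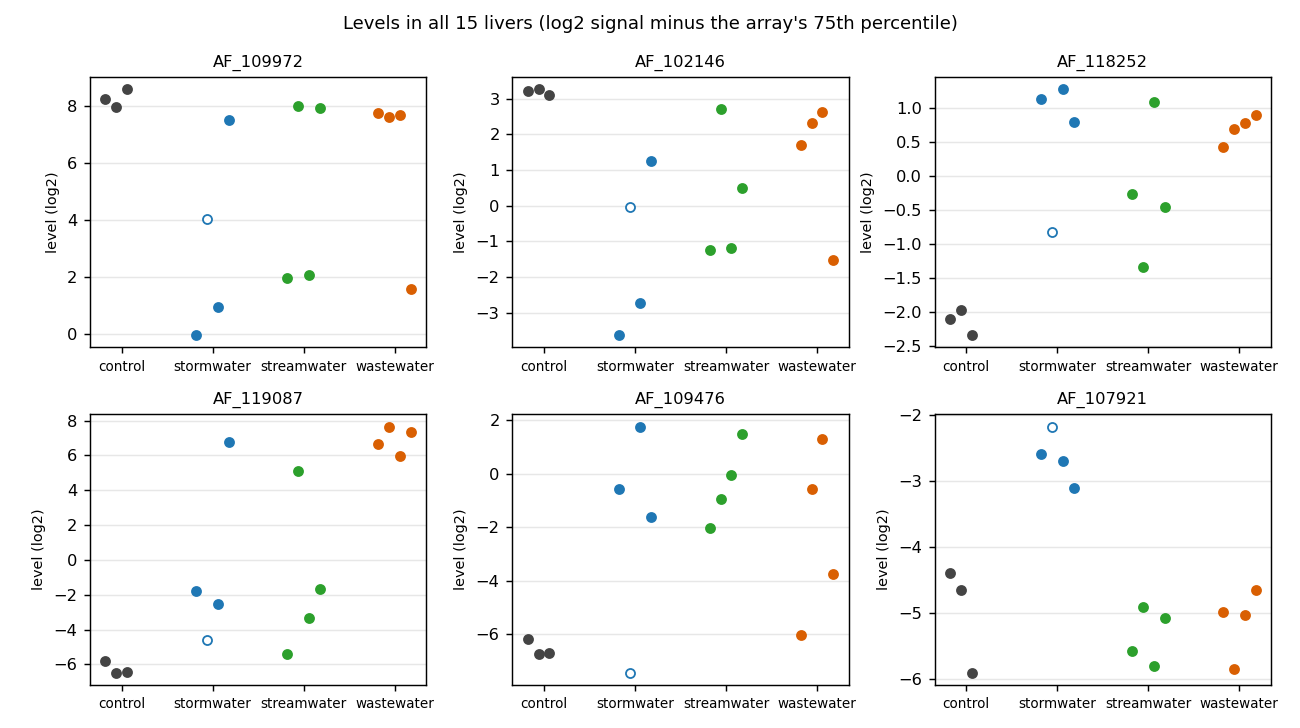
Levels (log2 signal minus the array's 75th percentile) of 6 probes in all 15 livers, by water, with 1 point per liver and stormwater replicate 2 as an open circle. AF_107921 is higher in the 4 stormwater livers than in the 11 others, where it was not well above background, while AF_109972, AF_102146, AF_119087 and AF_109476 spread over several log2 units within the stormwater group. AF_119087 is also high in the 4 wastewater livers and in streamwater replicate 2. AF_109476 was also detected in the 4 streamwater livers and in wastewater replicates 2 and 3.

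Of the 30 probes with the lowest p or detected in 1 group only, 10 had other probes on the array for the same contig number or target, 16 in all. These did not move as a block. AF_101112 changed by 1.80, and AM_120617, a probe of the same target detected on all 7 arrays, by -0.52. AF_115056 changed by 1.28, and 2 tested probes of contigs with its number, AF_102926 and AF_118406, by -0.35 and 0.40. AF_112851 changed by -1.69, and its 3 tested companions AF_113493, AF_117841 and AM_120104 by -0.03, -0.64 and 1.30. AF_110916 changed by -2.40, AF_107114 by 1.70 and AM_119946 by -1.02. Only AM_119283, at -1.91, had a companion near it, AF_107908 at -1.52, which was detected in 1 stormwater and 2 control livers. None of these passed adjustment (limma). The files hold 709 target names with 2 probes, and among the 119 such pairs detected on all 7 arrays, 60 pairs had changes of the same sign and the median difference between the 2 changes was 0.60. What separates the 2 probes of such a pair is not stated in the sources used here, and they were not treated as repeat measurements.

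The kinds of probe name are described without a test. Against the 7.46% of all tested probes with an unadjusted p under 0.05 (2.34% higher and 5.11% lower), the share was 6.84% among the 8561 tested AF probes named by contigs other than the FJU_SB series (2.65% higher and 4.19% lower). It was 8.26% among the 460 AF probes of FJU_SB contigs (1.74% and 6.52%), 9.66% among the 1895 AF probes named by sequence numbers (1.48% and 8.18%) and 9.17% among the 360 AM probes (0.556% and 8.61%). The median log2 changes of these 4 kinds were -0.13, -0.23, -0.40 and -0.41, and -0.11, -0.23, -0.43 and -0.48 without replicate 2. After quantile normalization they were 0.020, -0.055, -0.15 and -0.17, nearer to 0. Of the 100 probes brightest in the controls, 86 were other contigs, 13 FJU_SB contigs and 1 a sequence number, and the part of brightness in these medians was not tested.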

How the data were processed

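Intensities of 1-colour spots were written by Agilent Feature Extraction, given as 10.1.1.1 in the file headers and as 9.5 in the submitters' processing notes. Per the file headers, the software had subtracted each array's background from the intensities and had not scaled arrays to each other, and it had marked spots well above background. The authors' deposited table holds log2 values that correlated with log2 of the processed signal at 0.993 to 1.00 across probes, with column medians of 8.38 to 8.57. Their centring is not given in the sources used. They served as an alternative.

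Log2 of the processed signal minus the array's 75th percentile over non-control probes entered limma (version 3.58.1, R 4.3.3; lmFit, eBayes, two-sided, Benjamini-Hochberg over 11306 probes), with 5 residual degrees of freedom, or 4 without stormwater replicate 2. Outlier spots were set to missing. The contrast with the other waters used all 15 arrays. The fit was tested on simulated data.

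Named were the probes of lowest p in each direction, those detected in 1 group only, those most moved by stormwater replicate 2 and the brightest of each group. AF_102146, AF_109476, AF_119087 and the probes of single livers were chosen after their values were seen. The arrays, lists and rules were chosen with earlier results of these data known. No gene list yielded a probe. The alternatives comprised a normexp background (offset 50), quantile normalization, the authors' values, other filters, slide or replicate number as a block, fits within slides, trended variances, array weights, all 15 arrays and leaving out each array.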

Additional observations from a re-analysis of the deposited data

Results flagged for a closer look

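Among the named probes and array measures, 42 sets of 4 stormwater values were examined for a liver far from the other 3, and 8 had one. Chance would give about 1 in 20, or 2.1 on average. All sets hold the same 4 livers, and the probes were chosen from these data, so 8 beside 2.1 is not a test of an excess. In 6 of the 8, stormwater replicate 2 was the low liver of a bright probe. It was at 4.54 in AF_102718, 2.03 in AF_113208, 2.76 in AF_107896, 3.74 in AF_114707, 7.11 in AF_117718 and 7.11 in AF_103403, each on the log2 scale relative to the array's 75th percentile. The same liver was the high one in AF_115294, at -2.90 with the others at -3.92 to -3.78. In AF_108513 stormwater replicate 1 was the low liver, at -2.76 against -2.07 to -2.0 in the other 3. The difference of AF_107921 between stormwater and the mean of streamwater and wastewater, 2.59 on the log2 scale, had a limma adjusted p of 0.0198, and of 0.158 without stormwater replicate 2. It was taken against signals within the background, in a probe that had passed the filter through the stormwater livers alone. Without the filter, in a later fit on the same values, the adjusted p was 0.0230.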

How the results depend on the processing

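The number of probes at a limma adjusted p under 0.05 was 0 with 7 arrays in all 21 settings. Without stormwater replicate 2 it was 0 in the main setting, 1 (AF_118252) with normexp, with only probes detected on all arrays and with trended variances, and 0 to 2 with 1 more array left out. Of 1150 values of 30 named probes under alternatives, 0 changed direction and 3 became significant. The groups did not overlap in any of these 30 probes, which were chosen from the same data. Leaving out an array or fitting within a slide could therefore not have changed their direction. With 7 arrays, probes higher at an unadjusted p under 0.05 numbered 408 by quantile normalization, 418 in the authors' values, 89 within slide 2 and 139 to 325 with 1 array left out. Probes lower numbered 296, 265, 215 and 328 to 639. Slide as a block gave 238 higher and 768 lower, array weights 322 and 781, and no filter 278 and 832 of all 15208 probes. Probes above every control numbered 577 to 947 with 1 array left out, 617 by quantile and 645 in the authors' values. Probes below every control numbered 1132 to 1432, 411 and 354. The median change was -0.026 by quantile, -0.0014 in the authors' values, -0.12 with probes detected on all arrays, -0.14 with array weights and -0.22 to -0.14 with 1 array left out.

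Without stormwater replicate 2, probes higher numbered 402 by quantile, 410 in the authors' values, 389 with array weights, 116 in the fit of all 15 arrays and 165 to 318 with 1 array left out. Probes lower numbered 315, 290, 396 within slide 2 and 402 to 673 of the 11306 tested, and 976 of all 15208 with no filter. Slide as a block gave 276 higher and 914 lower, and array weights gave 807 lower. Probes above every control numbered 791 to 1287 and probes below 1770 to 2369 with 1 array left out. By quantile and in the authors' values 796 and 848 lay above, and 625 and 572 below. The median change was -0.031, -0.019, -0.11 with probes detected on all arrays, -0.12 with array weights and -0.23 to -0.13. The contrast with the other waters called 0 probes without replicate 2, and 1 by quantile normalization, with slide as a block and, in a fit added after the values were seen, without the filter. The difference in probes above background was -4.45 to 0.256 percentage points with 1 array left out, turning to 0.256 without stormwater replicate 1 and 0.235 without control replicate 2, and that of the 75th percentile 395 to 1011 intensity units. The cause of these moves was not tested.

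Deviations of same-numbered livers from their group means correlated at 0.30, 0.25 and 0.07 for numbers 1 to 3. Each of these 3 stormwater livers correlated best with the control of its own number, and their correlations with other controls ran from -0.31 to 0.00017. Stormwater replicate 4, which has no control of its number, correlated with control 3 at 0.15, above the 0.07 of the pair numbered 3. Deviations from a group mean sum to 0 in each probe, so a positive correlation with 1 control lowers those with the others. The labels do not say whether the numbers pair the samples, so a pairing was not assumed and was fitted only as an alternative. With the replicate block 0 probes passed, and 333 were higher and 763 lower at an unadjusted p under 0.05 with 7 arrays, and 137 and 543 without replicate 2. Overlap was not recomputed within slides, with blocks, trends, weights or all 15 arrays. Signals near background limit the dim probes, and saturated spots the brightest.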
